A study of Mus musculus with 11 samples.

Results

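Yolk sacs of mouse embryos at embryonic day 9.5 in which both Hand1 alleles carried Hand2 in place of Hand1 (H1H2H2) were compared directly with yolk sacs in which T-Cre had removed floxed Hand1 (H1CKO). The comparison took the 4 H1H2H2 and 3 H1CKO libraries, 7 of the 11 bulk RNA sequencing libraries of the series, and all genes that passed a filter on low counts, 14671 of the 15061 listed. The question was how far a second HAND factor, put at the Hand1 locus, gave a yolk sac transcriptome different from that of a yolk sac without Hand1. The 4 control libraries were kept in the fit and are given beside each gene as the background.

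HAND1 and HAND2 are closely related basic helix-loop-helix transcription factors. They bind E-box sequences as dimers with the widely expressed E proteins that Tcf3, Tcf4 and Tcf12 encode. The yolk sac has an outer visceral endoderm, which takes up maternal protein and secretes lipoproteins and plasma proteins, and an inner extraembryonic mesoderm, which forms mesothelium, smooth muscle, blood islands and vessels. Hand1 is expressed in the extraembryonic mesoderm, and mouse embryos without it die with a poorly formed yolk sac vasculature and a failing heart.

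The genotype of the H1H2H2 embryos was Hand1 H2/H2, with no Cre named, so Hand1 was replaced in every cell. H1CKO embryos were T-Cre +/-; Hand1 fx/fx, and control embryos were Hand1 fx/+ with no Cre named, though the library names call them WT. T-Cre acts in the primitive streak and the mesoderm that leaves it, and it is not known for activity in the visceral endoderm. Cre was carried by the H1CKO group only, so effects of Cre itself and of Hand1 removal cannot be told apart. The H1CKO libraries are named as a knockout over a floxed allele in one label and as floxed on both alleles in another, and the genotype field was followed. In the library names the yolk sacs are numbered, with a number of its own for each of the 7 mutant libraries and 1 number shared by control 1 and control 2, and litters are not given.

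Total counts per library were 12019377 to 12373800 in H1CKO, 14420211 to 16824228 in H1H2H2 and 13948560 to 15465289 in control. All 3 H1CKO libraries held Y-linked and little Xist RNA, as did H1H2H2 8, 9 and 11, while H1H2H2 10 held Xist RNA. Control had 1 library of the first kind and 3 of the second. On the first principal component, which held 69.1% of the variance, the H1CKO libraries stood at 92.3 to 104 and the other 8 at -60.7 to -7.38. The labelled tissue was checked against its markers. The 21 plasma protein genes of the visceral endoderm summed to 14110.0 to 15905 CPM (read counts scaled to library size with TMM factors) in H1H2H2 and 2919 to 4381 CPM in H1CKO, so the yolk sac markers were present in all libraries. Markers of tissues of the embryo proper went with the H1CKO group. The 20 heart sarcomere genes summed to 4805 to 12182 CPM there, against 392 to 517 CPM in H1H2H2 and 405 to 599 CPM in control. The 21 neural genes summed to 127 to 183 CPM in H1CKO and 3.78 to 6.71 CPM in H1H2H2, where 5 of them had no count. The part of these transcripts in the differences below was not tested. In bulk RNA, fewer cells of a type and less RNA per cell cannot be told apart.

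Hand1 transcripts were low in both groups, and Hand2 transcripts were lower in 3 of the 4 H1H2H2 libraries than in any H1CKO library. Hand1 (chr11:57828713-57832147, mm10, minus strand) stood at 15.2, 4.35, 8.59 and 9.97 CPM in H1H2H2 libraries 8, 9, 10 and 11 and at 10.8, 6.18 and 5.95 CPM in H1CKO libraries 5, 6 and 7. The values overlapped, every mutant library lay below the control range of 31.1 to 91.1 CPM, and no difference was called between the mutants (log2 fold change 0.32, SE 0.44, edgeR adjusted p = 0.541). Hand2 (chr8:57320983-57324517, plus strand) stood at 81, 23.6, 35.9 and 33.7 CPM in H1H2H2 and at 70.5, 72.8 and 91.8 CPM in H1CKO, against 43.5, 42.3, 47.2 and 31.7 CPM in control libraries 1 to 4. H1H2H2 8 lay inside the H1CKO range, while H1H2H2 10 and 11 lay inside the control range and H1H2H2 9 below it. The group difference passed the test (log2 fold change -0.85, SE 0.32, edgeR adjusted p = 0.0329) and lost it in 7 of 20 other settings, among them the fit of the 7 mutant libraries alone (-0.82, edgeR adjusted p = 0.069) and the fit with a term for sex (-0.78, edgeR adjusted p = 0.0616). Without H1H2H2 8 it was -1.33 on the log2 scale (edgeR adjusted p = 5.47e-05). The table does not separate Hand2 reads of the replaced Hand1 locus from those of the Hand2 gene, and 19.6% of Hand2 exon bases overlap the antisense gene Hand2os1.

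**Figure D1:**
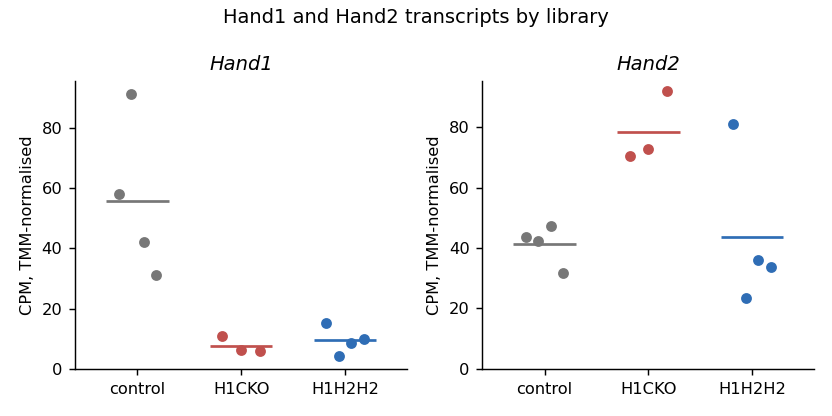
Normalised CPM of Hand1 and Hand2 in each library, by group, with a bar at the group mean. Hand1 lay at 4.35 to 15.2 CPM in the 7 mutant libraries, below all control libraries, and Hand2 was high in the 3 H1CKO libraries and in H1H2H2 8.

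Most of the transcriptome differed between the groups. Of 14671 genes, 4662 were higher in H1H2H2, 31.8% of those tested, and 4879 were lower, 33.3% (edgeR quasi-likelihood test, adjusted p under 0.05). The libraries of the 2 groups did not overlap at 62.3% of all genes, among them 4175 of the higher and 4523 of the lower genes. Large differences were mostly in one direction: 675 genes were at least 8-fold lower in H1H2H2 and 32 were at least 8-fold higher. The median log2 fold change over all genes was -0.03. For 3490 of the higher genes (74.9%) and 3983 of the lower genes (81.6%), the control mean lay nearer to H1H2H2 than to H1CKO. The control mean lay between the 2 groups for 3632 of the higher and 4074 of the lower genes. It lay beyond the H1CKO mean for 160 and 102 genes. With so many genes called, a list of genes is read below against these shares, and the medians of lists against -0.03.

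**Figure D2:**
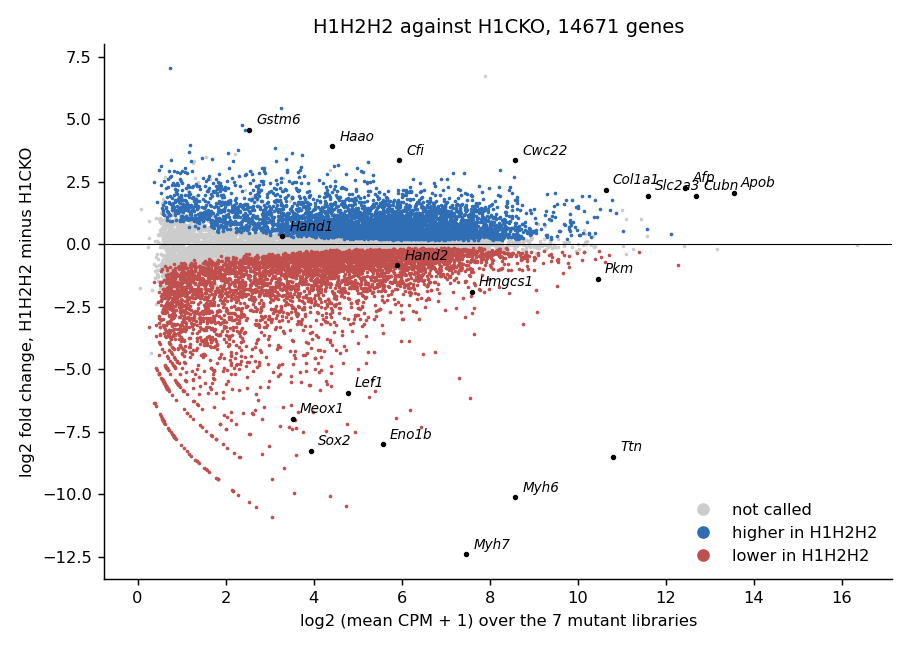
Log2 fold change of H1H2H2 minus H1CKO against mean level, log2 (CPM + 1), over the 7 mutant libraries for 14671 genes, with called genes in blue (higher in H1H2H2) and red (lower). The lower genes reach -12.41 (Myh7), and the curved lines at low levels are genes with few or no counts in H1H2H2.

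E-boxes were looked for in promoters of genes at which the groups differed, since this is the sequence class that HAND dimers bind. RefSeq (GRCm38.p6) gave a promoter for 10948 of the genes tested, and the motif CANNTG, which reads the same on both strands, was searched in the 250 bases before the start. It was present in 57.2% of these promoters, in 59.6% of those of higher genes, 54.9% of lower genes and 57.1% of genes not called. The form CATCTG, searched on both strands and itself a CANNTG, was present in 9.76% of all promoters, in 9.61% and 9.55% of those of higher and lower genes and in 10.1% of those of genes not called. The promoters of 3 genes from groups described below are shown as examples, with CANNTG in capitals. Afp is from the secreted proteins of visceral endoderm, Hmgcs1 from the sterol pathway and Myh7 from the heart genes. Afp, plus strand, chr5:90490464-90490713, holds 4 such motifs, Hmgcs1, plus strand, chr13:119690101-119690350, holds 1, and Myh7, minus strand, chr14:54994550-54994799, holds 2.
Afp: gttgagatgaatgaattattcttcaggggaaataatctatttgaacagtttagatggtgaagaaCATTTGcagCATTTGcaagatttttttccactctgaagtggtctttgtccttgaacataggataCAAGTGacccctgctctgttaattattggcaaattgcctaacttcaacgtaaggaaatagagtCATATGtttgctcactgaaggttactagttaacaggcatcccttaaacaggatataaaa
Hmgcs1: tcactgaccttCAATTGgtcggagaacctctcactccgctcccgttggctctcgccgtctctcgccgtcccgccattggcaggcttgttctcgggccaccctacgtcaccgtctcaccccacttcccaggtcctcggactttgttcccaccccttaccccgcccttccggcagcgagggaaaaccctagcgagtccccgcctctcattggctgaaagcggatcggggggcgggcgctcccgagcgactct
Myh7: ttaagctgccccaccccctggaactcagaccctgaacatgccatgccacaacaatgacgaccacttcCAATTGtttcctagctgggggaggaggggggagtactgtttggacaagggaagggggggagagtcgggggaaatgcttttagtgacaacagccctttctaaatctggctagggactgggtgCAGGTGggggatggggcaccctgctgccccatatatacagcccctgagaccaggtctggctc
In the lists that these genes come from, CANNTG was present in 12 of 17 promoters of plasma protein genes, 10 of 16 of cholesterol genes and 15 of 18 of heart sarcomere genes, and CATCTG in 5, 2 and 1 of them. A match is a description of the letters and not of binding.

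The E protein genes were lower in H1H2H2. Of 11 genes tested of the HAND, TWIST, E protein and ID families, 8 were lower, Hand2 among them, and 3 were not called, Hand1, Id1 (log2 fold change 0.04) and Id2 (0.19), beside 33.3% lower among all genes. The median log2 fold change of the 11 was -1.12. The E protein gene Tcf3 stood at 88.9, 69.3, 72.1 and 69.8 CPM in H1H2H2 and 205, 214 and 239 CPM in H1CKO. The groups did not overlap (log2 fold change -1.55, SE 0.10, edgeR adjusted p = 4.83e-07), and control lay at 88.7 to 106 CPM, close to H1H2H2. Tcf12 and Tcf4, the other E protein genes, had log2 fold changes of -1.25 (SE 0.085, edgeR adjusted p = 6.18e-07) and -1.37 (SE 0.17, edgeR adjusted p = 2.27e-05). Twist1, a bHLH factor of the same family as the HAND proteins and a regulator of mesenchyme, stood at 12.1, 8.27, 9.84 and 8.12 CPM in H1H2H2 and 26.9, 41.4 and 41.8 CPM in H1CKO (log2 fold change -1.94, SE 0.20, edgeR adjusted p = 5.32e-06). Control held 8.20 to 12.8 CPM of Twist1, so the H1CKO libraries were the ones apart.

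Genes of the visceral endoderm were higher in H1H2H2 than in H1CKO, in each of the lists for secretion and uptake. Of 21 plasma protein and coagulation genes tested, 16 were higher, 5 were not called, and the median log2 fold change was 1.63. This list also holds the receptor gene Amn, which is counted among the endocytic genes too, and the median is the value of Amn. Of 14 apolipoprotein and lipoprotein assembly genes 12 were higher and 2 were not called (median 1.57), and of 12 endocytic genes 11 were higher and 1 was not called (median 1.35). Afp, which encodes alpha-fetoprotein, the main plasma protein of the fetus (chr5:90490714-90508907), stood at 7529.7, 9503, 8323 and 8493 CPM in H1H2H2 and 2141, 1550.1 and 1614 CPM in H1CKO. Each H1H2H2 library also lay above the control range of 5859 to 6793 CPM (log2 fold change 2.26, SE 0.14, edgeR adjusted p = 3.63e-07 against H1CKO). Fga, a chain of the clotting protein fibrinogen, stood at 655, 529.9, 449.9 and 522 CPM in H1H2H2 and 159, 108 and 119.6 CPM in H1CKO (log2 fold change 2.07, SE 0.15, edgeR adjusted p = 9.07e-07). Serpind1, the gene of the thrombin inhibitor heparin cofactor II, stood at 38.8, 32.8, 30.5 and 30.1 CPM in H1H2H2 and 7.38, 3.89 and 6.03 CPM in H1CKO (log2 fold change 2.52, SE 0.18, edgeR adjusted p = 8.56e-07), with control at 35.2 to 43.5 CPM. The largest difference in this list was at Cfi (chr3:129836739-129875328), a protease that inactivates complement. Cfi stood at 102, 98.4, 91.4 and 102 CPM in H1H2H2 and at 11, 11 and 6.72 CPM in H1CKO (log2 fold change 3.36, SE 0.16, edgeR adjusted p = 1.49e-07). H1CKO 5, the library with the most heart sarcomere transcripts (12182 CPM), also held the most plasma protein transcripts of its group (4381 CPM).

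Lipoprotein genes showed the same order of the groups. Apob, the structural protein of very low density lipoproteins (chr12:7977677-8016839), stood at 16201, 18018, 18295 and 18677 CPM in H1H2H2 and at 6058, 3274 and 3511 CPM in H1CKO (log2 fold change 2.06, SE 0.19, edgeR adjusted p = 3.19e-06). Control held 14610.0 to 17120.5 CPM of Apob, a range that overlapped H1H2H2. Apom, a carrier of sphingosine-1-phosphate in high density lipoprotein, stood at 485, 628, 584 and 649 CPM in H1H2H2 and 145, 61.4 and 63.3 CPM in H1CKO (log2 fold change 2.70, SE 0.27, edgeR adjusted p = 4.97e-06). All 4 H1H2H2 libraries were above the control range of 301 to 369.9 CPM at this gene. Dgat2, the enzyme of the last step of triglyceride synthesis, likewise lay above control, at 142, 209, 177 and 203 CPM in H1H2H2 against 107 to 127 CPM in control and 70.7, 48.2 and 53.9 CPM in H1CKO (log2 fold change 1.67, SE 0.16, edgeR adjusted p = 3.03e-06). Apoa1, the main protein of high density lipoprotein, had a log2 fold change of 1.78 (SE 0.27, edgeR adjusted p = 9.24e-05), and Apoa4 one of 1.6 (SE 0.16, edgeR adjusted p = 5.24e-06), though 69.8% of Apoa4 exon bases overlap another gene model.

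The receptors that bring protein into the visceral endoderm were also higher in H1H2H2. Cubn and Amn encode cubilin and amnionless, the 2 parts of the receptor complex cubam, and Lrp2 encodes its partner megalin. Cubn stood at 9435, 9466, 9829 and 10100.5 CPM in H1H2H2 and 3633, 1968 and 1975 CPM in H1CKO (log2 fold change 1.94, SE 0.19, edgeR adjusted p = 4.54e-06). Amn stood at 276, 323, 276 and 281 CPM in H1H2H2 and 115, 73.7 and 90.6 CPM in H1CKO (log2 fold change 1.63, SE 0.13, edgeR adjusted p = 1.38e-06), and Lrp2 at 1898, 2072, 1886 and 2125 CPM in H1H2H2 and 899, 669 and 675 CPM in H1CKO (log2 fold change 1.42, SE 0.11, edgeR adjusted p = 1.38e-06). At these 3 genes no H1H2H2 library came near the H1CKO range, and H1CKO 5 was the highest of its group at each. Fcgrt, the receptor that carries maternal antibody, had a log2 fold change of 2.14 (SE 0.17, edgeR adjusted p = 1.19e-06), and the metal transporter gene Slc39a8 one of 2.16 (SE 0.16, edgeR adjusted p = 9.65e-07). Among all 12 endocytic genes, 5 were above every other library, control included, beside 8.69% of all genes tested.

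The transcription factors of the visceral endoderm did not move as a block. Of 13 tested, 6 were higher in H1H2H2, 5 were lower and 2 were not called, with a median of 0.55. Among all genes 31.8% were higher and 33.3% lower, and in so short a list each gene weighs much. The count of lower genes was 2 or 3 without any 1 of H1CKO 5, 6 and 7 or H1H2H2 8, 10 and 11. Hnf4a, a nuclear receptor that drives many liver and yolk sac genes (chr2:163547188-163572907), stood at 540.2, 476, 417 and 472 CPM in H1H2H2 and 178, 116 and 143 CPM in H1CKO (log2 fold change 1.71, SE 0.14, edgeR adjusted p = 1.61e-06). Foxa3, another factor of endoderm, had a log2 fold change of 1.33 (SE 0.15, edgeR adjusted p = 9.27e-06). Foxa1, a factor of gut endoderm and notochord as well as of visceral endoderm, went the other way, at 2.82, 2.24, 4.03 and 4.13 CPM in H1H2H2 and 22.9, 18.7 and 21.5 CPM in H1CKO (log2 fold change -2.67, SE 0.25, edgeR adjusted p = 2.99e-06). Every H1H2H2 library was below the control range of 6.39 to 12.5 CPM at Foxa1.

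**Figure D3:**
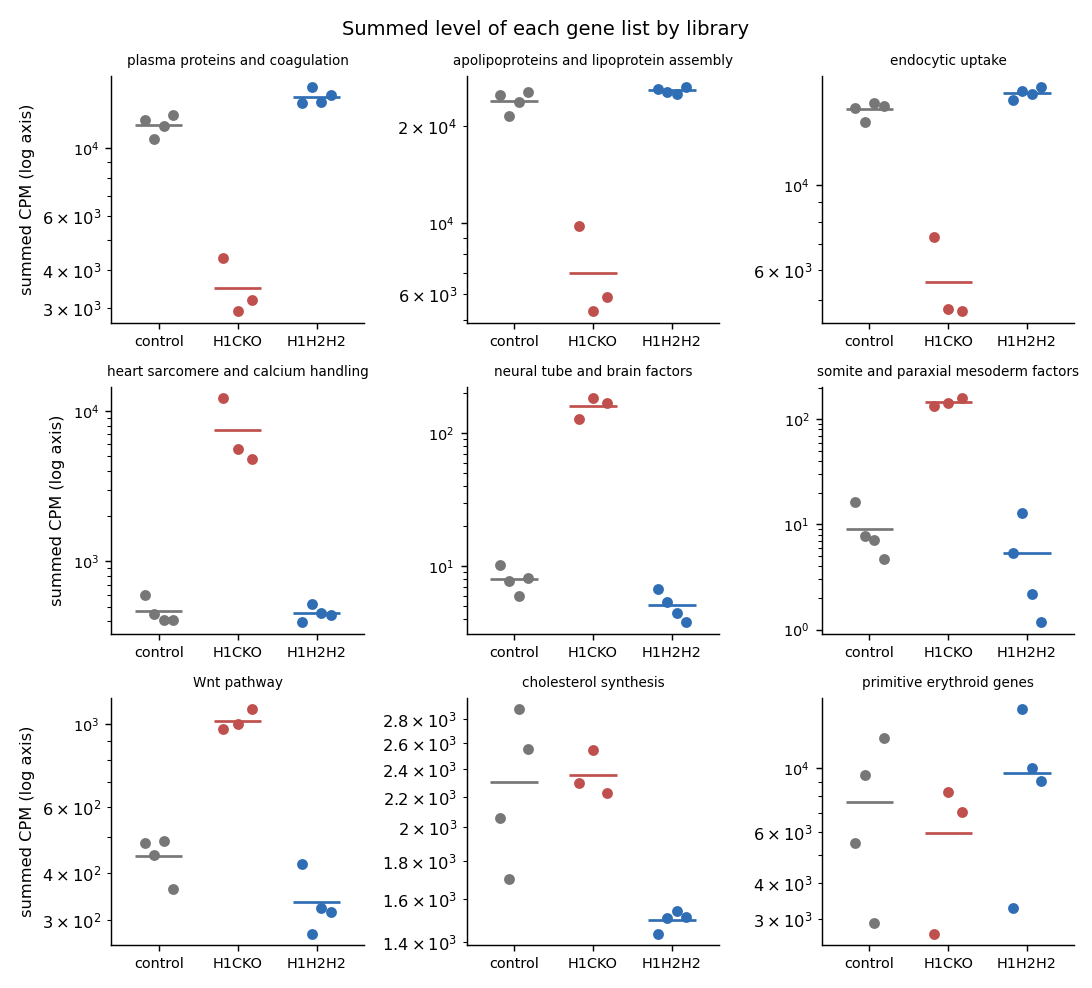
Summed normalised CPM of 9 gene lists in each library (log axes that differ between panels), with a bar at each group mean. The plasma protein, lipoprotein and endocytic sums are lowest in H1CKO, the heart, neural, somite and Wnt sums are highest in H1CKO, and the cholesterol sum is lowest in H1H2H2.

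Heart genes were far lower in H1H2H2 than in H1CKO. Of 20 heart sarcomere and calcium handling genes tested, 19 were lower and 1 was not called, with a median log2 fold change of -6.85. Myh7 (chr14:54970688-54994549), a myosin heavy chain of heart muscle, stood at 0.141, 0.124, 0 and 0 CPM in H1H2H2 and 664, 261 and 307 CPM in H1CKO (log2 fold change -12.41, SE 0.57, edgeR adjusted p = 1.49e-07). Near-identical stretches of Myh6 make the split of reads between these 2 genes uncertain. Myh6, the atrial myosin heavy chain, stood at 0.212, 2.67, 0.0661 and 0.0688 CPM in H1H2H2 and 1439, 691 and 546 CPM in H1CKO (log2 fold change -10.12, SE 1.41, edgeR adjusted p = 5.37e-05), and control 1 held 26.8 CPM. Myl2, a myosin light chain of the ventricle, had 2 counts over the 4 H1H2H2 libraries and 2307 over the 3 H1CKO libraries, a ratio of 1776 (95% counting interval 491 to 14670). Ttn, the giant spring protein of the sarcomere (chr2:76703984-76982547), stood at 6.99, 19.1, 11.5 and 8.32 CPM in H1H2H2 and 6957, 2988 and 2559.6 CPM in H1CKO (log2 fold change -8.50, SE 0.96, edgeR adjusted p = 1.08e-05). H1CKO 5 held the most of each of these 4 transcripts, and every control library lay far below every H1CKO library. Actn2, Tnni3 and Tnnt2, of the Z disc and the thin filament, had log2 fold changes of -7.20 (SE 0.39, edgeR adjusted p = 2.58e-07), -7.33 (SE 0.44, edgeR adjusted p = 3.5e-07) and -6.63 (SE 0.50, edgeR adjusted p = 9.53e-07). Intervals and floors from counts here cover counting error only.

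Of 13 heart transcription factor genes tested, 11 were lower in H1H2H2 and 2 were not called, with a median of -3.05. Nkx2-5, the homeobox factor of early heart, stood at 0, 0.187, 0 and 0.0688 CPM in H1H2H2 and 43.5, 16.4 and 18.1 CPM in H1CKO (log2 fold change -8.43, SE 0.68, edgeR adjusted p = 1.32e-06). Tbx5, a factor of the heart tube and forelimb, stood at 5.15, 1.37, 1.45 and 2.20 CPM in H1H2H2 and 53.9, 40.9 and 46.3 CPM in H1CKO (log2 fold change -4.22, SE 0.43, edgeR adjusted p = 5.11e-06). Gata5, found in heart and endoderm, stood at 4.59, 3.36, 4.23 and 4.47 CPM in H1H2H2 and 69.97, 40.5 and 42.3 CPM in H1CKO (log2 fold change -3.61, SE 0.37, edgeR adjusted p = 5.7e-06). Smyd1, a methyltransferase of muscle, had a log2 fold change of -4.24 (SE 0.38, edgeR adjusted p = 2.53e-06). H1H2H2 and control ranges overlapped at each of these 4 genes.

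Neural and somite genes were lower in H1H2H2 throughout their lists. All 21 neural genes tested were lower, with a median log2 fold change of -7.05, or -5.02 when the bound below replaces the value of each gene without counts. The 10 somite genes tested were also all lower, with a median of -4.94. Of 22 neural genes listed 21 passed the filter, and genes absent from the other groups passed it through the H1CKO libraries alone, so these counts are descriptions. Sox2, a factor of neural progenitors (chr3:34650005-34652460), stood at 0.212, 0.124, 0 and 0.0688 CPM in H1H2H2 and 34.8, 30.7 and 34.2 CPM in H1CKO (log2 fold change -8.25, SE 0.45, edgeR adjusted p = 2.58e-07). Otx2, a factor of forebrain and midbrain, and Sox1, of the neural tube, had no count in H1H2H2. Against a floor of 3 counts over the group they were at least 223-fold and 164-fold lower there. Pax6, of brain, eye and spinal cord, had 1 count in H1H2H2 and 362 in H1CKO, a ratio of 557 (interval 99.4 to 22069). Pou3f2, a factor of neural progenitors, had 1 count against 662, a ratio of 1019 (interval 182 to 40309), and Nkx6-1, of the ventral neural tube, had 3 against 442, a ratio of 227 (interval 77.1 to 1104). Meox1, of the somites (chr11:101877510-101894354), stood at 0.353, 0.124, 0.132 and 0.138 CPM in H1H2H2 and 18.6, 26.1 and 28.2 CPM in H1CKO (log2 fold change -6.98, SE 0.41, edgeR adjusted p = 3.5e-07). Pax1, of the sclerotome, had 1 count in H1H2H2 and 320 in H1CKO, a ratio of 493 (interval 87.8 to 19516). The paraxial mesoderm factors Foxc1 and Foxc2 had log2 fold changes of -5.67 (SE 0.49, edgeR adjusted p = 1.95e-06) and -5.51 (SE 0.27, edgeR adjusted p = 1.73e-07). H1H2H2 libraries held less of these transcripts than H1CKO, and control held 5.96 to 10.2 CPM of the neural and 4.70 to 16.5 CPM of the somite list.

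The other genes at the low end of the fold changes were of the same kinds. Eya1, a cofactor of homeobox proteins in placodes and kidney, had a log2 fold change of -5.0 (SE 0.42, edgeR adjusted p = 1.62e-06). Fsd2, a gene of striated muscle, and Foxb1, a forkhead factor of the brain and neural tube, had no count in H1H2H2 and were at least 254-fold and 183-fold lower. The long noncoding RNA genes Miat and Rmst, both transcribed in nervous tissue, followed: Rmst was at least 164-fold lower, and Miat had 1 count against 978, a ratio of 1505 (interval 270 to 59522). Foxi2, a forkhead factor gene, was at least 160-fold lower. Of the 14 limb, kidney and gut genes tested, 10 were lower, 2 were higher and 2 were not called, with a median of -3.47. Sox9, a factor of cartilage and gut, stood at 2.89, 3.73, 2.11 and 1.93 CPM in H1H2H2 and 36, 43.1 and 52.9 CPM in H1CKO (log2 fold change -4.04, SE 0.34, edgeR adjusted p = 1.66e-06), and Pax8, of the early kidney, had a log2 fold change of -5.49 (SE 0.45, edgeR adjusted p = 1.38e-06).

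Hox genes give position along the body axis. Of 31 tested, 23 were lower in H1H2H2 and 8 were not called, with a median of -2.72. The groups did not overlap at 13 of the 31, a smaller share than the 62.3% of all genes. H1CKO 5 stood apart, with a summed level of 148 CPM against 361 and 439 CPM in H1CKO 6 and 7, 38.4 to 114 CPM in H1H2H2 and up to 140 CPM in control. The anterior genes Hoxa2 and Hoxa3 had log2 fold changes of -5.33 (SE 0.61, edgeR adjusted p = 1.17e-05) and -3.19 (SE 0.41, edgeR adjusted p = 2.69e-05). Hoxa2 stood at 0.212, 0.311, 0.264 and 0.206 CPM in H1H2H2, 11.9, 8.93 and 10.3 CPM in H1CKO and 2.06, 0.618, 1.27 and 0.0662 CPM in control, so 3 of the 4 control libraries were above every H1H2H2 library. Hoxb3 had a log2 fold change of -2.72, with 52.9% of its exon bases in overlapping models.

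**Figure D4:**
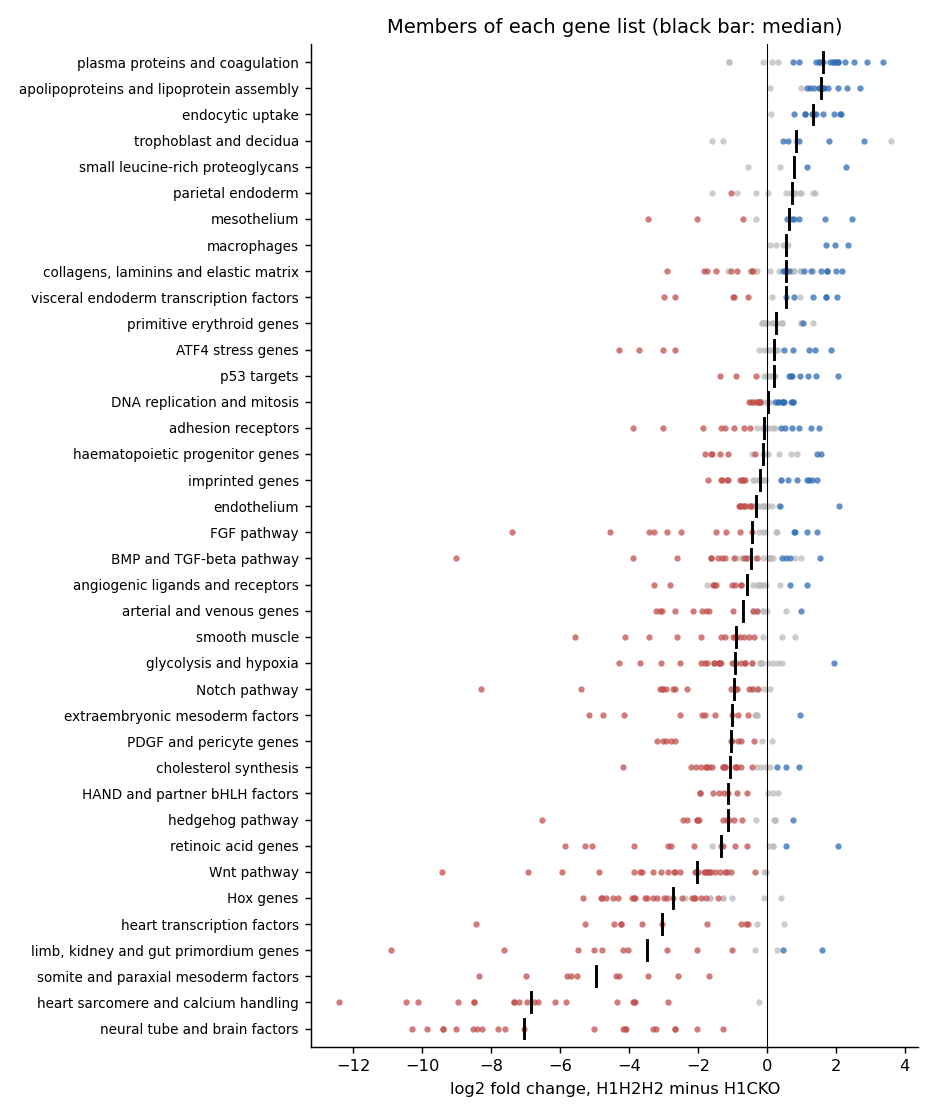
Log2 fold change of H1H2H2 minus H1CKO for each tested member of 38 gene lists, in order of the list median (black bar), with members called higher in blue, lower in red and not called in grey. Medians of the fitted values run from -7.05 for neural factors to 1.63 for the plasma protein list, which also holds the receptor gene Amn. With bounds for genes without counts the neural median is -5.02 and the lowest is that of the heart sarcomere genes, -6.85.

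Signalling genes were mostly lower in H1H2H2. These pathways are active in heart, neural tube and somites, whose markers were high in the same H1CKO libraries, and the part of those transcripts was not tested. Of 30 Wnt genes tested, 28 were lower and 2 were not called, with a median of -2.03, and the summed level was 276 to 423 CPM in H1H2H2 and 969 to 1093 CPM in H1CKO. Rspo2, a secreted agonist of Wnt signalling, had no count in H1H2H2 and was at least 120-fold lower. Fzd7, a Wnt receptor, stood at 51.6, 48.3, 46.8 and 47.9 CPM in H1H2H2 and 159, 146 and 164 CPM in H1CKO (log2 fold change -1.68, SE 0.12, edgeR adjusted p = 7.57e-07), with control at 45.9 to 70.4 CPM. Lef1, the transcription factor that acts with beta-catenin (chr3:131110297-131224357), stood at 1.41, 0.497, 1.32 and 0.688 CPM in H1H2H2 and 51.4, 62.5 and 66.7 CPM in H1CKO (log2 fold change -5.94, SE 0.52, edgeR adjusted p = 2.06e-06). Axin2, a target and inhibitor of the pathway, stood at 11.2, 6.03, 8.32 and 6.95 CPM in H1H2H2 and 38.8, 66.1 and 70.5 CPM in H1CKO (log2 fold change -2.85, SE 0.26, edgeR adjusted p = 2.53e-06). The control values of Axin2, 14.9, 16.8, 18.3 and 10.2 CPM, lay between, nearer to H1H2H2.

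Of 20 Notch genes tested, 15 were lower in H1H2H2 and 5 were not called (median -0.96). The ligand gene Jag1 stood at 13.8, 8.39, 16.5 and 14.4 CPM in H1H2H2 and 94.2, 78.1 and 77.3 CPM in H1CKO (log2 fold change -2.65, SE 0.19, edgeR adjusted p = 8.31e-07), and control, at 11.1 to 16.3 CPM, was at the H1H2H2 level. A second ligand gene, Jag2, had a log2 fold change of -2.71 (SE 0.27, edgeR adjusted p = 4.65e-06). Notch3, the receptor of vascular smooth muscle, stood at 25.2, 16.7, 23.6 and 17.4 CPM in H1H2H2 and 156, 159 and 183 CPM in H1CKO (log2 fold change -3.0, SE 0.24, edgeR adjusted p = 1.33e-06). Hey1, a target of Notch signalling that encodes a bHLH repressor, stood at 1.69, 4.04, 3.44 and 1.86 CPM in H1H2H2 and 25.9, 21.7 and 24.4 CPM in H1CKO (log2 fold change -3.11, SE 0.30, edgeR adjusted p = 4.03e-06).

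Hedgehog genes were lower in 11 of 16 tested cases, higher in 1 and not called in 4 (median -1.13). The ligand gene Shh stood at 0.141, 0.0622, 0.0661 and 0.344 CPM in H1H2H2 and 12.3, 15.9 and 15.3 CPM in H1CKO (log2 fold change -6.51, SE 0.75, edgeR adjusted p = 1.22e-05), and 28.3% of the exon bases of Shh lie in another gene model. Smo, the signal transducer of the pathway, stood at 74.1, 55.5, 66.7 and 60.9 CPM in H1H2H2 and 136, 139 and 153 CPM in H1CKO (log2 fold change -1.15, SE 0.11, edgeR adjusted p = 2.72e-06), and every H1H2H2 library lay below the control range of 78.5 to 97.2 CPM. The coreceptor genes Boc and Cdon had log2 fold changes of -2.01 (SE 0.20, edgeR adjusted p = 4.37e-06) and -0.95 (SE 0.10, edgeR adjusted p = 8.06e-06), and they too lay below all control libraries in H1H2H2. Of the 16 genes, 3 were below every other library in this way, beside 5.55% of all genes tested.

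The BMP and TGF-beta list was mixed, with 12 of 28 genes lower, 4 higher and 12 not called (median -0.47). Among all genes 33.3% were lower and 31.8% higher. The 4 members with the smallest p, named here, were lower, and each encodes an inhibitor. Grem1, a secreted BMP antagonist, had no count in H1H2H2 and was at least 91.8-fold lower. Smad6 and Smad7, the inhibitory SMADs that BMP and TGF-beta signals induce, were lower. Smad6 stood at 32.5, 21.2, 23.6 and 23.1 CPM in H1H2H2 and 84.7, 70.1 and 77.6 CPM in H1CKO (log2 fold change -1.63, SE 0.13, edgeR adjusted p = 1.43e-06). The log2 fold change of Smad7 was -1.42 (SE 0.13, edgeR adjusted p = 3.35e-06), and that of the decoy receptor gene Bambi was -1.61 (SE 0.16, edgeR adjusted p = 4.19e-06). Of 19 FGF genes, 10 were lower, 4 were higher and 5 were not called (median -0.43), beside the same shares of all genes. The ligand genes Fgf8, of midbrain and tail bud, Fgf10, of limb and lung mesenchyme, and Fgf15, of neural tube, were lower: Fgf8 had 2 counts in H1H2H2 and 275 in H1CKO, a ratio of 212 (interval 58.04 to 1756). Fgf10 had a log2 fold change of -2.90 (SE 0.31, edgeR adjusted p = 6.65e-06) and Fgf15 one of -4.55 (SE 0.43, edgeR adjusted p = 3.19e-06). Etv5, a transcription factor induced by FGF signals, went the other way at 142, 146, 148 and 163 CPM in H1H2H2 and 78.3, 43.4 and 42.1 CPM in H1CKO (log2 fold change 1.46, SE 0.18, edgeR adjusted p = 2.49e-05), with a near-identical copy that makes its count uncertain.

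Retinoic acid genes differed in direction. Of 17 tested, 11 were lower, 2 were higher and 4 were not called (median -1.34). Aldh1a2, the enzyme that makes retinoic acid in embryonic mesoderm, stood at 0.565, 0.435, 0.264 and 0.619 CPM in H1H2H2 and 12.5, 21.5 and 21.3 CPM in H1CKO (log2 fold change -5.27, SE 0.59, edgeR adjusted p = 9.86e-06). The binding protein genes Crabp1 and Crabp2 had log2 fold changes of -5.87 (SE 0.60, edgeR adjusted p = 5.7e-06) and -2.86 (SE 0.25, edgeR adjusted p = 2.1e-06). Rbp4, the retinol carrier that visceral endoderm secretes, stood at 1073, 1029, 999 and 1137 CPM in H1H2H2 and 353, 189 and 222 CPM in H1CKO (log2 fold change 2.06, SE 0.20, edgeR adjusted p = 4.42e-06).

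Vessel genes differed less than those of endoderm or heart. Of 22 endothelial genes tested, 12 were not called. In H1H2H2, 8 were lower and 2 were higher, beside 33.3% lower and 31.8% higher among all genes. The median of the list was -0.31. Without H1CKO 6 or 7 or H1H2H2 9, 10 or 11, the lower genes were 4 or 5. Flt1, the VEGF receptor that acts as a sink, stood at 75.3, 45.1, 66.4 and 64.3 CPM in H1H2H2 and 91.1, 106 and 125 CPM in H1CKO (log2 fold change -0.77, SE 0.15, edgeR adjusted p = 0.000623). Fli1, an ETS factor, and Eng, a TGF-beta coreceptor, had log2 fold changes of -0.76 (SE 0.16, edgeR adjusted p = 0.00106) and -0.70 (SE 0.21, edgeR adjusted p = 0.00991), and Eng missed the threshold without H1CKO 5 (edgeR adjusted p = 0.053). Lyve1, a hyaluronan receptor of yolk sac endothelium and macrophages, was higher, at 123, 127, 134 and 123 CPM in H1H2H2, 38.7, 24.8 and 25.9 CPM in H1CKO and 103 to 165 CPM in control (log2 fold change 2.09, SE 0.18, edgeR adjusted p = 1.76e-06). With Lyve1, the scavenger receptor genes Stab2, of endothelium, and Mrc1, of macrophages and endothelium, were higher in H1H2H2. Stab2 stood at 301, 134, 262 and 255 CPM in H1H2H2 and 101, 36.9 and 43.5 CPM in H1CKO (log2 fold change 1.98, SE 0.34, edgeR adjusted p = 0.000304), and Mrc1 at 73.6, 60.9, 83.4 and 82.5 CPM in H1H2H2 and 28.3, 20.3 and 19.7 CPM in H1CKO (log2 fold change 1.72, SE 0.17, edgeR adjusted p = 4.22e-06).

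Arterial and venous genes were lower in 11 of 18 cases, higher in 1 and not called in 6 (median -0.69), with 7 lower without H1H2H2 11. Cxcr4, a chemokine receptor of arterial endothelium, stood at 0.988, 0.870, 1.72 and 1.17 CPM in H1H2H2 and 8.48, 11.6 and 13 CPM in H1CKO (log2 fold change -3.21, SE 0.31, edgeR adjusted p = 4.07e-06), and Flrt2, which encodes an adhesion protein, had a log2 fold change of -1.76 (SE 0.17, edgeR adjusted p = 3.94e-06). Of 20 angiogenic ligand and receptor genes, 9 were lower, 2 were higher and 9 were not called (median -0.58). Among all genes 33.3% were lower and 31.8% higher. Vegfa, the ligand that directs vessel growth (chr17:46016993-46032377), stood at 93.4, 92.8, 94.3 and 95.9 CPM in H1H2H2 and 172, 170.4 and 226 CPM in H1CKO (log2 fold change -1.01, SE 0.10, edgeR adjusted p = 4.74e-06). All H1H2H2 libraries lay just above the control range of 74.3 to 90.9 CPM and well below H1CKO. Angpt1, the ligand of the TIE2 receptor that steadies vessels, stood at 19.7, 9.89, 14.9 and 15.6 CPM in H1H2H2, 48.6, 42.5 and 39.8 CPM in H1CKO and 22.2 to 26.5 CPM in control (log2 fold change -1.54, SE 0.18, edgeR adjusted p = 1.25e-05), so H1H2H2 lay below both. The guidance ligand gene Sema3c had a log2 fold change of -3.28 (SE 0.44, edgeR adjusted p = 3.82e-05) and the peptide ligand gene Apela one of -2.81 (SE 0.39, edgeR adjusted p = 5.22e-05).

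Smooth muscle and pericyte genes were lower in H1H2H2. Of 18 smooth muscle genes tested, 15 were lower and 3 were not called (median -0.90), and of 12 PDGF and pericyte genes 10 were lower and 2 were not called (median -1.03). Myocd, the coactivator that switches on smooth and heart muscle genes, stood at 1.55, 0.560, 0.793 and 0.688 CPM in H1H2H2 and 72.5, 30.5 and 25.6 CPM in H1CKO (log2 fold change -5.58, SE 0.57, edgeR adjusted p = 5.3e-06). Its DNA-binding partner Srf stood at 59.6, 51.4, 46 and 45.3 CPM in H1H2H2 and 88.5, 89.2 and 107 CPM in H1CKO (log2 fold change -0.91, SE 0.10, edgeR adjusted p = 1.21e-05). The contractile genes Cnn1 and Lmod1 had log2 fold changes of -4.10 (SE 0.42, edgeR adjusted p = 5.3e-06) and -1.91 (SE 0.26, edgeR adjusted p = 5.07e-05). Among the ligands, Pdgfa and Pdgfc had log2 fold changes of -2.77 (SE 0.40, edgeR adjusted p = 6.46e-05) and -3.20 (SE 0.33, edgeR adjusted p = 5.28e-06), and the receptor gene Pdgfra one of -1.05 (SE 0.33, edgeR adjusted p = 0.0148), which missed the threshold without H1CKO 7 (edgeR adjusted p = 0.0524). Pdgfc stood at 2.40, 2.11, 2.84 and 2.61 CPM in H1H2H2, and all but H1H2H2 10 lay below the control range of 2.65 to 8.81 CPM. Several genes of these lists are also heart genes, and H1CKO 5, which held the most heart sarcomere transcripts, held the most Myocd and Cnn1 as well.

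Genes listed as extraembryonic mesoderm factors and as mesothelial genes differed in direction. Many of these factors are also active in mesenchyme of the embryo, and where the transcripts came from was not tested. Of 15 extraembryonic mesoderm factor genes tested, 10 were lower in H1H2H2, 1 was higher and 4 were not called (median -1.02). Nr2f1 and Nr2f2 encode COUP-type nuclear receptors. Nr2f2, the venous and mesenchymal one, stood at 67.9, 31.3, 36 and 39.96 CPM in H1H2H2 and 153, 159 and 172 CPM in H1CKO (log2 fold change -1.88, SE 0.22, edgeR adjusted p = 1.32e-05), with control at 50.4 to 74.2 CPM. Nr2f1 and the mesenchymal homeobox genes Prrx1 and Prrx2 had log2 fold changes of -5.14 (SE 0.48, edgeR adjusted p = 3.28e-06), -4.13 (SE 0.51, edgeR adjusted p = 2.24e-05) and -4.75 (SE 0.37, edgeR adjusted p = 1.07e-06). Of 10 mesothelial genes, 6 were higher in H1H2H2, 3 were lower and 1 was not called (median 0.66), with 1 lower without H1CKO 6, H1H2H2 10 or H1H2H2 11. The uroplakin genes Upk1b and Upk3b, of the mesothelial surface, were among the higher ones. Upk1b stood at 20.6, 13, 18 and 15.3 CPM in H1H2H2 and 2.91, 3.59 and 2.44 CPM in H1CKO (log2 fold change 2.49, SE 0.23, edgeR adjusted p = 2.82e-06), and Upk3b had a log2 fold change of 1.70 (SE 0.19, edgeR adjusted p = 8.72e-06). Control overlapped H1H2H2 at both. The keratin genes Krt8 and Krt18, of this and other epithelia, stood above all other libraries in H1H2H2, with log2 fold changes of 0.72 (SE 0.090, edgeR adjusted p = 2.42e-05) and 0.80 (SE 0.083, edgeR adjusted p = 5.95e-06), and a near-identical copy makes the count of Krt8 uncertain.

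Several collagen and proteoglycan genes were higher in H1H2H2, while the hyaluronan synthase gene Has2 was lower. Col1a1, a chain of type I collagen (chr11:94936270-94951856), stood at 3538, 1196, 2284 and 2513 CPM in H1H2H2 and 459.7, 515 and 610.2 CPM in H1CKO (log2 fold change 2.17, SE 0.28, edgeR adjusted p = 2.62e-05). Control held 2511 to 2639.8 CPM of Col1a1, and H1H2H2 8 lay above and H1H2H2 9 and 10 below that narrow range. Col1a2 and Col14a1, also fibrillar or fibril-associated collagens, had log2 fold changes of 1.75 (SE 0.23, edgeR adjusted p = 3.42e-05) and 2.0 (SE 0.23, edgeR adjusted p = 1.09e-05). Of the 33 matrix genes tested, 10 were higher and 8 lower, beside 31.8% and 33.3% of all genes, and 15 were not called (median 0.55). Lum, the collagen-binding proteoglycan lumican, stood at 249, 154, 205 and 196 CPM in H1H2H2 and 37.6, 46 and 38.8 CPM in H1CKO (log2 fold change 2.30, SE 0.15, edgeR adjusted p = 4.82e-07). Dcn, decorin, stood at 42.6, 20.02, 23.6 and 29.6 CPM in H1H2H2, 10.6, 13.7 and 14.3 CPM in H1CKO and 50.6 to 57 CPM in control, so both mutant groups lay below control (log2 fold change 1.17, SE 0.22, edgeR adjusted p = 0.000522 between the mutants). Fmod and Bgn, the other 2 small proteoglycan genes tested, had log2 fold changes of 0.40 (SE 0.40, edgeR adjusted p = 0.403) and -0.53 (SE 0.36, edgeR adjusted p = 0.207). Without H1H2H2 8, Bgn was called lower (-1.05, edgeR adjusted p = 0.00148) and the value of Fmod was -0.047. Has2, the main hyaluronan synthase of the embryo, stood at 12, 8.21, 8.46 and 10.6 CPM in H1H2H2 and 87.3, 69.6 and 62.4 CPM in H1CKO (log2 fold change -2.90, SE 0.24, edgeR adjusted p = 1.68e-06).

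Of 22 adhesion receptor genes, 6 were higher and 8 lower, beside 31.8% and 33.3% of all genes, and 8 were not called (median -0.07). The cadherin genes went in opposite directions. Cdh1, of epithelia, stood at 463, 423, 424 and 452 CPM in H1H2H2 and 218, 159 and 169.8 CPM in H1CKO (log2 fold change 1.27, SE 0.11, edgeR adjusted p = 2.48e-06), and Cdh2, of heart, nervous system and mesenchyme, stood at 17.3, 7.90, 10.3 and 5.85 CPM in H1H2H2 and 148, 149 and 155 CPM in H1CKO (log2 fold change -3.87, SE 0.37, edgeR adjusted p = 3.85e-06). Icam1, a ligand of leukocyte integrins, had a log2 fold change of 1.52 (SE 0.10, edgeR adjusted p = 5.69e-07) and the integrin gene Itga9 one of -1.85 (SE 0.19, edgeR adjusted p = 5.23e-06).

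Primitive erythroid genes separated the groups little. Progenitor and macrophage genes separated them more than erythroid genes did, but a smaller share of them was called than the 65% of all genes. Of 17 primitive erythroid genes tested, 1 was higher and 16 were not called, with a median of 0.27. The embryonic globin gene Hbb-bh1 stood at 643, 4823, 3006 and 2661 CPM in H1H2H2 and 494, 1529.8 and 1241 CPM in H1CKO, and Hbb-y at 1102, 6218, 3539 and 3309.8 CPM in H1H2H2 and 713, 2614 and 1971 CPM in H1CKO. H1H2H2 8 and H1CKO 5 were the lowest of their groups at both globins, and H1H2H2 8 lay inside the H1CKO range (log2 fold change 1.35, SE 0.62, edgeR adjusted p = 0.0736 for Hbb-bh1). The called gene was Tfrc, the transferrin receptor, at 146, 499, 396 and 341 CPM in H1H2H2 and 121, 219.5 and 164 CPM in H1CKO (log2 fold change 1.04, SE 0.38, edgeR adjusted p = 0.029), where H1H2H2 8 lay inside the H1CKO range. This call was lost in 5 of 20 other settings, among them the term for sex (0.92, edgeR adjusted p = 0.0547). Of 15 progenitor genes, 6 were lower, 2 were higher and 7 were not called (median -0.10). Kit, the stem cell factor receptor, stood at 15.7, 25.9, 15.4 and 13.5 CPM in H1H2H2 and 48, 50.2 and 60.9 CPM in H1CKO (log2 fold change -1.59, SE 0.38, edgeR adjusted p = 0.00299), and Meis1 and Mecom, stem cell factors also active in other embryonic tissues, had log2 fold changes of -1.80 (SE 0.17, edgeR adjusted p = 3.91e-06) and -1.61 (SE 0.22, edgeR adjusted p = 5.46e-05). Macrophage genes were higher in 3 of 8 cases and not called in 5 (median 0.57). The summed levels did not overlap for either list, at 178 to 206 CPM in H1H2H2 and 320 to 375 CPM in H1CKO for progenitor genes and at 321 to 555 CPM in H1H2H2 and 187 to 269 CPM in H1CKO for macrophage genes. The macrophage sum includes Stab2, at 134 to 301 CPM in H1H2H2, and Mrc1, both given above as genes of endothelium too, so it does not show a difference in macrophages.

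Genes of cholesterol synthesis were lower in H1H2H2 than in H1CKO and also lower than in control. Of 24 tested, 17 were lower than in H1CKO, 3 were higher and 4 were not called (median -1.07). At 16 of the 17, all 4 H1H2H2 libraries were below every control and H1CKO library, beside 5.55% of all genes tested. The summed level of the list was 1436 to 1542 CPM in H1H2H2, 2228 to 2548 CPM in H1CKO and 1702 to 2889 CPM in control. Hmgcs1, the synthase that makes HMG-CoA for the pathway (chr13:119690351-119708260), stood at 93.1, 86.5, 92.2 and 82.5 CPM in H1H2H2, 323, 369 and 295 CPM in H1CKO and 211, 158, 285 and 229.5 CPM in control. The 3 groups did not overlap at Hmgcs1 (log2 fold change -1.89, SE 0.16, edgeR adjusted p = 1.44e-06 against H1CKO, and log2 fold change -1.32, SE 0.15, edgeR adjusted p = 0.00069 against control). Cyp51, which removes a methyl group from lanosterol (chr5:4080674-4104697), stood at 40.3, 26.3, 30.9 and 28.2 CPM in H1H2H2, 124, 172 and 140.2 CPM in H1CKO and 68.3 to 113 CPM in control (log2 fold change -2.21, SE 0.18, edgeR adjusted p = 1.65e-06 against H1CKO). Insig1, the sterol-responsive anchor that holds SREBP in the endoplasmic reticulum, stood at 22.1, 29.3, 16.6 and 18.4 CPM in H1H2H2, 88.4, 95.4 and 83.3 CPM in H1CKO and 52.1 to 82.9 CPM in control (log2 fold change -2.04, SE 0.20, edgeR adjusted p = 4.58e-06 against H1CKO). Sqle, squalene epoxidase, an early oxygen-using step, had a log2 fold change of -1.76 (SE 0.21, edgeR adjusted p = 1.43e-05) against H1CKO and -1.53 against control. Control and H1CKO nearly met at Insig1 and overlapped at Sqle, while the H1H2H2 libraries lay far below both.

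Glycolysis and hypoxia genes were mostly lower in H1H2H2, with 20 of 30 lower, 1 higher and 9 not called (median -0.92). The summed level of the list overlapped, at 9040 to 13270 CPM in H1H2H2 and 10992 to 12641 CPM in H1CKO. Control, at 6969 to 8408 CPM, lay below both. Pkm, pyruvate kinase, stood at 864, 1016, 748 and 701 CPM in H1H2H2 and 2008, 2078 and 2435 CPM in H1CKO (log2 fold change -1.39, SE 0.15, edgeR adjusted p = 7.7e-06), and a near-identical copy elsewhere makes its count uncertain. Hk2, hexokinase, stood at 44.4, 90.6, 66.9 and 59.7 CPM in H1H2H2 and 204, 251 and 282 CPM in H1CKO (log2 fold change -1.91, SE 0.20, edgeR adjusted p = 7.42e-06). Slc16a3, which exports lactate, stood at 26.5, 50.2, 28.9 and 16.1 CPM in H1H2H2 and 152, 171 and 200.4 CPM in H1CKO (log2 fold change -2.52, SE 0.28, edgeR adjusted p = 9.73e-06), and the aldolase gene Aldoc had a log2 fold change of -3.68 (SE 0.20, edgeR adjusted p = 2.55e-07). The higher gene was Slc2a3, a glucose transporter (chr6:122727809-122742745), at 2958, 5419.8, 4679.5 and 5023 CPM in H1H2H2, 1539, 1062 and 936 CPM in H1CKO and 2040.5 to 2651 CPM in control (log2 fold change 1.94, SE 0.22, edgeR adjusted p = 1.15e-05). All 4 H1H2H2 libraries were above every other library at Slc2a3 and control lay above H1CKO.

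The genes of serine synthesis were higher in H1H2H2. Phgdh, Psat1 and Psph encode the 3 enzymes of this route. Psph, the last of them, stood at 96.2, 149.7, 125 and 135 CPM in H1H2H2 and 43, 33.1 and 27.9 CPM in H1CKO (log2 fold change 1.87, SE 0.16, edgeR adjusted p = 1.89e-06), with control at 88.5 to 98.3 CPM. Psat1 stood at 599.7, 698, 635 and 672 CPM in H1H2H2 and 323, 254 and 255 CPM in H1CKO (log2 fold change 1.23, SE 0.11, edgeR adjusted p = 2.25e-06), and Phgdh, which has near-identical copies, had a log2 fold change of 1.40 (SE 0.14, edgeR adjusted p = 3.76e-06). H1H2H2 and H1CKO did not overlap at any of the 3. These 3 belong to a list of 18 ATF4 stress genes of which 5 were higher, 4 lower and 9 not called (median 0.22). Both shares were below those of all genes, 31.8% higher and 33.3% lower, so the list as a whole did not stand out. Slc3a2, an amino acid transporter subunit in it, had a log2 fold change of 0.75 (SE 0.093, edgeR adjusted p = 2.32e-05). Genes of replication and mitosis split evenly, with 10 of 26 higher, 9 lower and 7 not called (median 0.03). Among all genes 31.8% were higher and 33.3% lower. Without H1CKO 6, 5 of the list were lower, and differences in the list were small, from -0.52 to 0.77. Cdk1, the mitotic kinase, Birc5, survivin, and Ccne1, cyclin E1, had log2 fold changes of 0.77 (SE 0.10, edgeR adjusted p = 3.12e-05), 0.48 (SE 0.069, edgeR adjusted p = 6.4e-05) and 0.70 (SE 0.11, edgeR adjusted p = 0.000107), and the replicative helicase gene Mcm3 one of -0.45 (SE 0.071, edgeR adjusted p = 0.000154). Of 18 p53 targets, 7 were higher and 3 lower, beside 31.8% and 33.3% of all genes, and 8 were not called (median 0.21). Trp53inp1 and Ccng1, targets linked to stress and cell cycle arrest, and Pmaip1, an inducer of apoptosis, had log2 fold changes of 0.96 (SE 0.098, edgeR adjusted p = 5.2e-06), 0.74 (SE 0.13, edgeR adjusted p = 0.000341) and 1.42 (SE 0.16, edgeR adjusted p = 9.62e-06), and Bbc3, another inducer of apoptosis, one of -1.36 (SE 0.23, edgeR adjusted p = 0.000269).

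Trophoblast and decidua genes, which a dissected yolk sac may carry from neighbouring tissue, were higher in 5 of 9 cases and not called in 4 (median 0.85). Esx1, a homeobox gene of placenta and visceral yolk sac, stood at 44.3, 35.9, 39 and 44.2 CPM in H1H2H2 and 8.48, 4.12 and 4.88 CPM in H1CKO (log2 fold change 2.81, SE 0.22, edgeR adjusted p = 1.14e-06). Of 14 parietal endoderm genes, 1 was lower and 13 were not called (median 0.73), and the summed level ranged widely within H1H2H2, 4458 to 15462 CPM. H1H2H2 9 held most of it, with Lamb1, a laminin chain of Reichert's membrane, at 480.4, 1213, 464 and 518 CPM in H1H2H2 and 379.7, 385 and 398 CPM in H1CKO. Without H1H2H2 9, 4 of the list were lower, and without control 2, which was also high in these transcripts, 4 were higher. Of 25 imprinted genes, 9 were lower and 7 higher, beside 33.3% and 31.8% of all genes, and 9 were not called (median -0.21). Grb10, an adaptor that restrains growth (chr11:11930499-12037420), stood at 392, 367, 409 and 343 CPM in H1H2H2 and 1202, 1257 and 1203 CPM in H1CKO (log2 fold change -1.69, SE 0.096, edgeR adjusted p = 2.92e-07), and Rian, a maternally expressed noncoding RNA, at 1098, 1144, 1312 and 1269 CPM in H1H2H2 and 560.0, 505 and 483 CPM in H1CKO (log2 fold change 1.23, SE 0.10, edgeR adjusted p = 1.44e-06).

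A smaller set of genes set H1H2H2 apart from both other groups. In all, 1275 genes were higher than in H1CKO and above every other library, 8.69% of those tested, and 814 were lower and below every other library, 5.55%. Haao (chr17:83831354-83846790), an enzyme of tryptophan breakdown, stood at 48.9, 33.7, 22.7 and 31 CPM in H1H2H2, 2.91, 1.53 and 2.37 CPM in H1CKO and 7.6 to 9.53 CPM in control (log2 fold change 3.91, SE 0.29, edgeR adjusted p = 8.62e-07 against H1CKO, log2 fold change 2.0, SE 0.22, edgeR adjusted p = 0.00069 against control). Gsto1, a glutathione transferase, stood at 129, 134, 113 and 121 CPM in H1H2H2, 38.2, 31.8 and 34.5 CPM in H1CKO and 57.1 to 70.1 CPM in control (log2 fold change 1.84, SE 0.097, edgeR adjusted p = 2.55e-07 against H1CKO). Control was thus between the 2 mutants at both. Gstm6, another glutathione transferase, stood at 6.85, 7.96, 10.2 and 7.70 CPM in H1H2H2, 0.314, 0.305 and 0.382 CPM in H1CKO and 1.14, 0.275, 0.521 and 0.265 CPM in control, so there the other 2 groups overlapped (log2 fold change 4.58, SE 0.44, edgeR adjusted p = 3.55e-06 against H1CKO, log2 fold change 3.88, SE 0.36, edgeR adjusted p = 0.000196 against control). The transporter genes Abcb1b, of drug efflux, and Slc5a6, of vitamin uptake, and Fuca2, a fucosidase, had log2 fold changes of 3.12 (SE 0.18, edgeR adjusted p = 3.02e-07), 1.54 (SE 0.089, edgeR adjusted p = 3.14e-07) and 1.70 (SE 0.083, edgeR adjusted p = 1.49e-07), and near-identical copies make the counts of Abcb1b and Slc5a6 uncertain. Alox12b, a lipoxygenase gene, had the highest log2 fold change among the genes named by size (log2 fold change 4.76, SE 0.51, edgeR adjusted p = 7.24e-06), at 9.88, 7.46, 5.35 and 6.05 CPM in H1H2H2 and 0.393, 0.382 and 0 CPM in H1CKO.

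At 2 further genes, both with near-identical copies, H1CKO lay near control or above it and H1H2H2 lay far away. Cwc22, a splicing factor gene (chr2:77895653-77946356), stood at 632, 473, 469 and 905 CPM in H1H2H2, 53.2, 63.6 and 63.6 CPM in H1CKO and 56.5, 61, 54.1 and 59.6 CPM in control (log2 fold change 3.36, SE 0.22, edgeR adjusted p = 4.83e-07 against H1CKO). Eno1b, an enolase gene (chr18:48045335-48048383), stood at 0.141, 0.808, 0.462 and 0.206 CPM in H1H2H2, 100.3, 100.02 and 124 CPM in H1CKO and 55.3, 41.2, 55.8 and 53.3 CPM in control (log2 fold change -7.99, SE 0.26, edgeR adjusted p = 1.18e-08 against H1CKO). Reads that match 2 copies could be counted for either or for none, so the values of both genes are uncertain. Of genes below all other libraries in H1H2H2 without such copies, Chd7, a chromatin remodeller of neural crest and heart, stood at 60.2, 69.4, 65.4 and 60.7 CPM in H1H2H2 and 336, 391 and 409 CPM in H1CKO (log2 fold change -2.57, SE 0.11, edgeR adjusted p = 1.06e-07), with control at 79.4 to 104 CPM. Celsr2, an atypical cadherin of planar polarity, and Llgl1, a polarity scaffold, had log2 fold changes of -4.37 (SE 0.22, edgeR adjusted p = 1.81e-07) and -2.02 (SE 0.10, edgeR adjusted p = 2.11e-07).

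**Figure D5:**
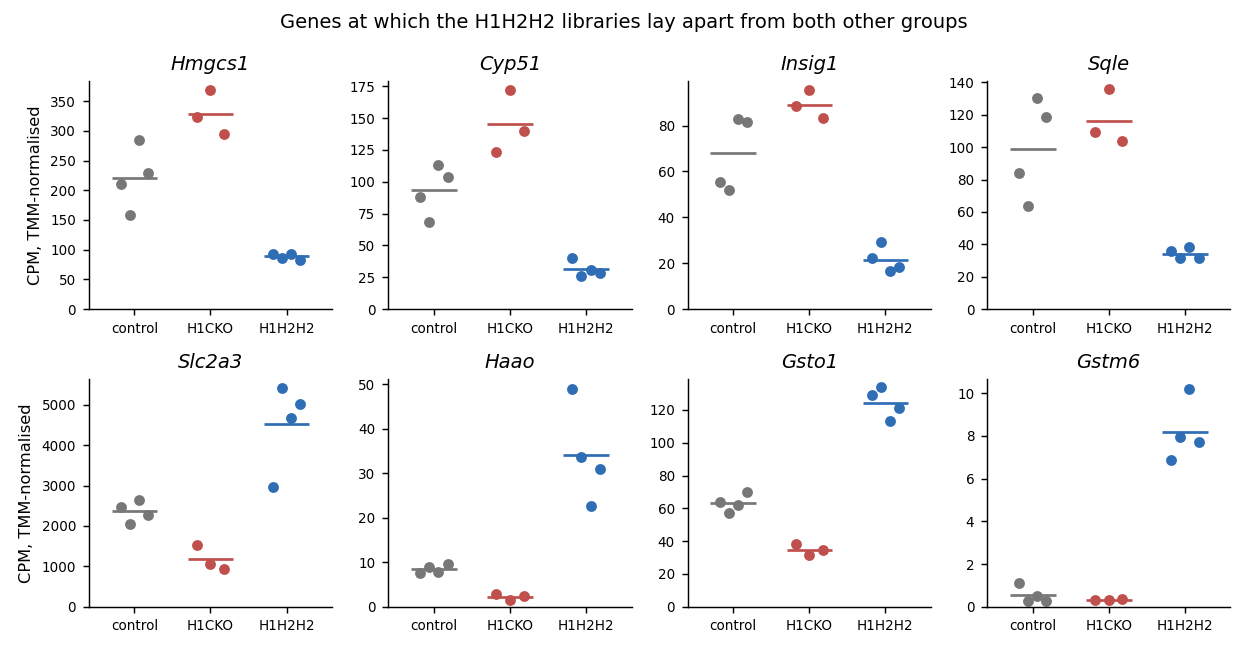
Normalised CPM in each library, by group with a bar at the mean, of 8 genes at which all H1H2H2 libraries lay outside the range of the other 7. The 4 sterol genes of the upper row are lowest in H1H2H2, at 16.6 to 93.1 CPM, and the 4 genes of the lower row are highest there.

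Genes beside Hand1 on chromosome 11 were examined because the locus is altered differently in the 2 groups. Of 41 tested genes that start within 2 Mb of Hand1, 4 were higher and 10 were lower in H1H2H2, 34.1% called in all, beside 65% of all genes. Their median log2 fold change was -0.14. The highest was Lypd8 at 2.16. Arf1 and Flcn, a vesicle GTPase and the folliculin gene, were higher by 0.65 (SE 0.086, edgeR adjusted p = 3.46e-05) and 1.07 (SE 0.12, edgeR adjusted p = 9.24e-06).

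In the authors' deposited table for the same comparison, 4897 genes were higher and 4729 lower in H1H2H2 at an adjusted p under 0.05. Of the 4662 higher and 4879 lower genes called here, 4661 and 4566 were called in the same direction in the authors' deposited table, and 0 genes were called in opposite directions.

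Reads of overlapping genes may be shared in these counts, since the sources used here do not say whether strand was used. Besides the genes so marked above, between 10.4% and 38.8% of exon bases lie in another gene model for Angpt1, Apela, Fgf15, Foxb1, Hmgcs1, Hoxa2, Hoxa3, Icam1, Lef1, Meis1, Miat, Myh7, Pdgfa, Pkm, Psph and Rmst.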

How the data were processed

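Yolk sac RNA (embryonic day 9.5) was measured in 11 bulk libraries, prepared with an mRNA kit per the labels' protocols. The ribosomal RNA precursor Rn45s still held 5.61% (H1H2H2 9) to 11.4% (control 3) of the counts. With Rn45s and the globin genes left out, 4730 genes were higher and 4794 lower in H1H2H2. The submitters' processing notes name Subread 1.5.1, featureCounts, STAR 2.5.2b, edgeR and the build mm10, and roles and strand settings are not given in the sources used here. The authors deposited raw read counts per gene and library, and these counts were used for every test. The log2 fold change, p-value and FDR columns that the authors deposited for the same comparison were used only to set their calls beside those made here. The other columns of the file hold coordinates and 11 log2 FPKM columns, which were not used.

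The test was edgeR's quasi-likelihood F test (edgeR 4.0.16, R 4.3.3) after filterByExpr and TMM scaling. Its model held all 11 libraries with group as the term, and H1H2H2 minus H1CKO was the contrast. Benjamini-Hochberg adjustment ran over 14671 genes, with a threshold of 0.05. The SE is the log2 fold change over the square root of F. The scripts were tested on simulated counts first, and the common biological coefficient of variation in the real fit was 0.171. A floor is 3 counts over the group, and intervals are 95% and cover counting error only. No pair of libraries of a group agreed within sampling noise. Sex was read from Xist and Y-linked counts.

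The named genes are Hand1 and Hand2, the 12 highest and 12 lowest log2 fold changes among called genes with no overlap and at least 5 CPM in the higher group, the 6 largest CPM differences per direction, up to 4 members per list by the smallest p, 6 genes per direction outside all other libraries and called genes within 2 Mb of Hand1. The text gives 164 of them, and some others are not reported here. The members, the 39 gene lists (one of them sex-linked transcripts, with 6 of 6 not called) and the rule were chosen with earlier results of these data known. Gene overlaps were read from GENCODE M21, near-identical copies were found with BLAST+ 2.17.0 (identity from 95%, alignment from 300 bases and from 30% of transcript length), and promoters are those of RefSeq. Alternatives were DESeq2 1.42.0, limma-voom (limma 3.58.1), other scalings and filters, a term for sex, leaving out Rn45s and globin genes, and leaving out each library.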

Additional observations from a re-analysis of the deposited data

Results flagged for a closer look

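Within groups of 4 libraries, 28 of 318 gene and group combinations had 1 library far from the other 3. Chance alone gives about 1 in 20 for independent values, but these combinations share libraries. Where the other 3 stood at 0, as at Pax6 and Pou3f2 in H1H2H2 10, 1 count was enough for a flag. The count of flags therefore cannot be read against that rate. In H1H2H2 8, the values apart were Tcf3 at 88.9 CPM (69.3 to 72.1 in the others), Flcn at 73.8, Itga9 at 46.5, Pdgfa at 5.44, Prrx1 at 4.09, Nr2f1 at 2.33 and Meox1 at 0.353 CPM. At each of these but Flcn, H1H2H2 8 was the highest of its group. In H1H2H2 9 they were Lamb1 at 1213 CPM (464 to 518 in the others), Krt8 at 632, Amn at 323, Myh6 at 2.67, Nkx6-1 at 0.187 and Miat at 0.0622 CPM. In H1H2H2 10, Pax1, Pax6 and Pou3f2 stood at 0.0661 CPM, which is 1 count, against 0 in the others. In H1H2H2 11, Smyd1 stood at 2.41 and Fgf8 at 0.138 CPM.

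Among the controls, control 1 held heart transcripts, with Ttn at 122 CPM (11.6 to 14.4 in the others), Myh6 at 26.8 CPM (0.132 to 0.343) and Tnnt2 at 5.90 CPM (1.24 to 1.49). Control 2 held Lamb1 at 1473 CPM, Kit at 43.8 CPM and Otx2, Pax1 and Foxb1 at 0.0687 CPM each, again 1 count. Control 3 held Cxcr4 at 0.521 CPM, the lowest of its group. Control 4 held Fgf15 at 0.331 CPM.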

How the results depend on the processing

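Higher and lower calls stayed within 1.5 times of the reported 4662 and 4879 in all 20 other settings run. They ranged from 4111 to 4996 higher and from 4267 to 5054 lower when any 1 of the 11 libraries was left out. In the other settings they ranged from 3972 to 4929 and from 4335 to 5639, and which direction held more genes changed between them. Upper-quartile factors gave 3972 higher and 5639 lower and moved the median log2 fold change of all genes from -0.03 to -0.14. With a term for sex the counts were 4472 and 4706, with DESeq2 4698 and 4831, and with limma-voom 4551 and 4968. Of the 164 genes named and examined, 158 were called, and 154 of these kept their direction and their call throughout. The calls on Hand2 (-0.87 to -0.61 where lost), Tfrc (0.84 to 1.02), Eng and Pdgfra were lost in at least 1 setting. Calls were gained for Hbb-bh1 (with DESeq2, 1.36, adjusted p = 0.0451, and without H1H2H2 8, 1.69, adjusted p = 0.0128), Bgn and Lamb1. Fmod changed sign without H1H2H2 8, and it ranged from -0.047 to 0.62 over the settings that leave out a library. The cause was not tested. Of 78 counts of list members by direction, 21 moved by over 1.5 times in at least 1 setting, all of them counts of 11 or fewer as reported. No paired analysis was possible because litters are not given, and the running numbers 1 to 11 of the libraries do not show which embryos shared a litter. Depth limits the genes with few counts in H1H2H2. Those named with 3 counts or fewer are given as bounds or as ratios with intervals. The fitted values of Myh7, Nkx2-5, Sox2, Tnni3, Shh, Pax8 and Meox1 rest on 4 to 11 counts in that group, so their sizes are imprecise.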

Other observations

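Kdm5d, a Y-linked demethylase gene, stood at 33.3 and 30.3 CPM in H1H2H2 8 and 9 and at 3.03 CPM in H1H2H2 11, while Eif2s3y, a translation factor gene of the same chromosome, stood at 43.4, 43.8 and 37.7 CPM there, the 3 H1H2H2 libraries with Y-linked RNA. In the 3 H1CKO libraries Kdm5d stood at 51.0, 61.5 and 59.2 CPM and Eif2s3y at 53.5, 57.7 and 43.2 CPM. The 2 Y-linked genes therefore did not keep 1 ratio across male libraries.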
